A study of Mus musculus with 9 samples.

Results

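The genes described here are the regulators, enzymes and carriers with which a cell detoxifies peroxides and superoxide and keeps its thiols reduced: the Nrf2 regulators, the glutathione and thioredoxin systems, the peroxiredoxins, the superoxide dismutases and the enzymes that supply NADPH. They form a list of 41 genes, chosen by symbol for their known roles, with earlier results of these data known, out of 26602 genes with at least 1 count in the midbrain libraries. Midbrain tissue including the substantia nigra was sequenced from 4 wild-type mice (WT in the labels, DJ-1+/+ below) and 5 mice without the Parkinson's disease gene DJ-1 (DJ-1 KO in the labels, DJ-1-/- below), with 1 library per mouse. The mice were young adults from heterozygous breeding on a C57BL/6 background and the genotypes were housed together. No treatment was given to either group, and the knockout is not restricted to a cell type. The libraries read a fragment next to the 3′ end of each polyadenylated transcript, so counts do not grow with transcript length, and they carried unique molecular identifiers, tags by which copies made in PCR are meant to be merged.

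Nrf2, the product of Nfe2l2, is a transcription factor that Keap1 holds in the cytoplasm and hands over to the proteasome. Oxidants and electrophiles modify Keap1, Nrf2 then accumulates, and with a small Maf protein it binds antioxidant response elements in front of genes for glutathione synthesis, thioredoxin recycling, quinone reduction and NADPH production, while Bach1 occupies the same elements as a repressor. DJ-1 is a small cytosolic protein with a reactive cysteine that has been linked to the handling of peroxides and to Nrf2, and dopaminergic neurons of the substantia nigra are known for their sensitivity to oxidants. The comparison of the genotypes therefore asks whether these transcripts stand at another level in the midbrain of a mouse without DJ-1.

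The core of the antioxidant response element, TGACNNNGC, was searched on both strands of the RefSeq promoters (GRCm38.p6, from 250 bases before to 50 bases after the transcript start). Promoters were matched for 35 of the 41 genes, and 9 of them (25.7%) held the core: Nfe2l2, Gclm, Txnrd1, Prdx1, Srxn1, Sod1, Me1, G6pdx and Pgd. Of all 27025 genes with promoters of the same length 14.0% held it, and of all 32851 promoters 12.4%. Hmox1, Gclc, Gsr, Msra, Prdx6 and Sod3 were not matched. A match is a description of the sequence and not a measured binding site. The stretches of 4 promoters are shown because they belong to enzymes of 4 different branches of peroxide defence. The core is in capitals, and in each of the 4 it lies on the opposite strand and reads GCNNNGTCA in the direction of the gene.
Gclm (chr3:122245393-122245461, + strand): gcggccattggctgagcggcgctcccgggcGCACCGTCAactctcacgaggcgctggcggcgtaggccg
Prdx1 (chr4:116685436-116685504, + strand): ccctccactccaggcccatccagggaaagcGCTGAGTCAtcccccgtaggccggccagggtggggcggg
Txnrd1 (chr10:82859084-82859152, + strand): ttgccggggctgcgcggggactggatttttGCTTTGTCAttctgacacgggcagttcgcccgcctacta
Sod1 (chr16:90220676-90220744, + strand): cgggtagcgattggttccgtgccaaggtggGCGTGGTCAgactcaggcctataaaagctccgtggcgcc
The capitals began 134 bases before the RefSeq start of Gclm, 133 before that of Prdx1, 92 before that of Txnrd1 and 56 before that of Sod1. The Gclm, Prdx1 and Sod1 stretches lie upstream of the gene in GENCODE M21, and the Txnrd1 stretch lies inside an intron of its longer transcripts.

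Library totals were 841974 to 886085 counts in DJ-1+/+ and 967751 to 1098125 counts in DJ-1-/- mice, so every DJ-1-/- library was deeper (p = 0.0159 by a two-sided exact permutation test, which 4 mice against 5 cannot go below). Levels are therefore given as counts per 1000000 of the library total (cpm), and the fold changes are those of edgeR after TMM scaling. A level of 3 counts, taken as the smallest that can be shown, corresponds to 2.73 to 3.56 cpm, for counting error only. The libraries also differed in tissue content, which in bulk tissue cannot be told apart from a change of RNA per cell. The summed level of 10 choroid plexus markers was 109 to 848 cpm in DJ-1+/+ and 100.2 to 208 cpm in DJ-1-/- mice, with DJ-1+/+ replicates 4 and 1 highest, that of 8 cerebellar neuron markers was 1102 cpm in DJ-1+/+ replicate 1 and 295 to 491 cpm in the other 8 libraries, and that of 10 dopaminergic neuron markers was 503 to 948 and 729.9 to 1006 cpm. Astrocyte markers, which come from the cells that carry much of the glutathione system, summed to 1748 to 1939 cpm and 1731 to 1859.8 cpm. At an unadjusted p under 0.05 by edgeR, 7 of 10 choroid plexus and 5 of 8 cerebellar markers were lower in DJ-1-/- mice. Of the dopaminergic markers 5 of 10 were higher at that threshold, which 511 of all 18127 genes tested (2.82%) passed. The dopaminergic markers all had counts, but Pitx3 had only 0 to 1 in DJ-1+/+ and 1 to 6 in DJ-1-/- libraries. DJ-1-/- replicate 5, like the DJ-1+/+ replicates 1 and 4 just named, held at most 2 counts of Xist, and the other 6 libraries 146 to 193. This puts 2 of 4 DJ-1+/+ and 1 of 5 DJ-1-/- libraries on the side without Xist. Y-linked transcripts split the mice the same way. Ddx3y was counted 113 to 152 times on the side without Xist and at most 4 times on the other, and Eif2s3y 35 to 41 times against 0. Kdm5d and Uty followed the same split. By these transcripts the mice without Xist were male and the other 6 female, so sex was mixed and not balanced between the genotypes. No antioxidant gene passed an unadjusted p of 0.05 by edgeR with DJ-1+/+ replicates 1 and 4 left out (2 against 5 mice). The same held among the 6 libraries with Xist counts (2 against 4 mice). None had passed with all mice either, and these fits hold fewer, so they cannot decide whether tissue content or sex bears on these genes. That was not tested.

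Park7, the gene of DJ-1 (ENSMUSG00000028964, chr4:150897133-150914437, minus strand), checked the labels. Its counts were 132, 105, 113 and 118 in the DJ-1+/+ and 23, 29, 14, 19 and 19 in the DJ-1-/- libraries, so that the groups were far apart while some counts remained in every DJ-1-/- library. The level was 135 ± 15.7 cpm (SD, n = 4 DJ-1+/+ mice) against 20.4 ± 4.54 cpm (SD, n = 5 DJ-1-/- mice), a log2 fold change of -2.71 ± 0.15 (SE) with an adjusted p of 7.44e-08 by edgeR. It was the 1 gene of 18127 tested (0.00552%) with an adjusted p under 0.05.

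None of the antioxidant genes passed the test for a difference between genotypes. Of the 41 genes 40 had the 10 counts over all libraries that the test required. An unadjusted p under 0.05 was found for 0 of 40 by edgeR, by DESeq2 or by the exact permutation test. Of all 18127 genes 511 (2.82%) had one by edgeR, 235 by DESeq2 and 666 by the exact permutation test. The adjusted p by edgeR was 0.9999 for each of the 40. For 0 of 40 were the cpm values of the genotypes free of overlap, against 1.25% of all genes tested. The fitted value was higher in DJ-1-/- mice for 21 genes and lower for 19, and the median log2 fold change was 0.00, with quartiles at -0.07 and 0.08, where that of all genes tested was 0.01, with quartiles at -0.11 and 0.14. The quartiles of all genes depended on abundance. They were -0.35 and 0.41 for the 5490 genes that averaged 1 to 10 counts, a class with 1 antioxidant gene. For the 2442 genes of 100 to 150 counts, the class of 14 antioxidant genes, they were -0.08 and 0.02. Summed over all 41 genes the level was 3681 to 4036 cpm in DJ-1+/+ mice and 3753 to 3994 cpm in DJ-1-/- mice.

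How small a difference could have been seen depended on the gene. The 95% interval of the fold change lay within 1.25-fold in both directions for 22 of the 40 genes, within 1.5-fold for 32 and within 2-fold for 37. For genes that vary less than counting error the interval is too narrow, so these numbers of genes may be too high. Nqo1, Hmox1, Gsr, Gpx7, Gpx8, Txnrd2, Prdx4 and Sod3 were the 8 whose interval reached past 1.5-fold, and for Hmox1, Gsr and Gpx7 it reached past 2-fold. Sod1 was the most abundant of the list, with 258 counts per library on average. In all, 18 genes averaged at least 100 counts per library, 17 between 20 and 100, and 6 under 20.

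**Figure D1:**
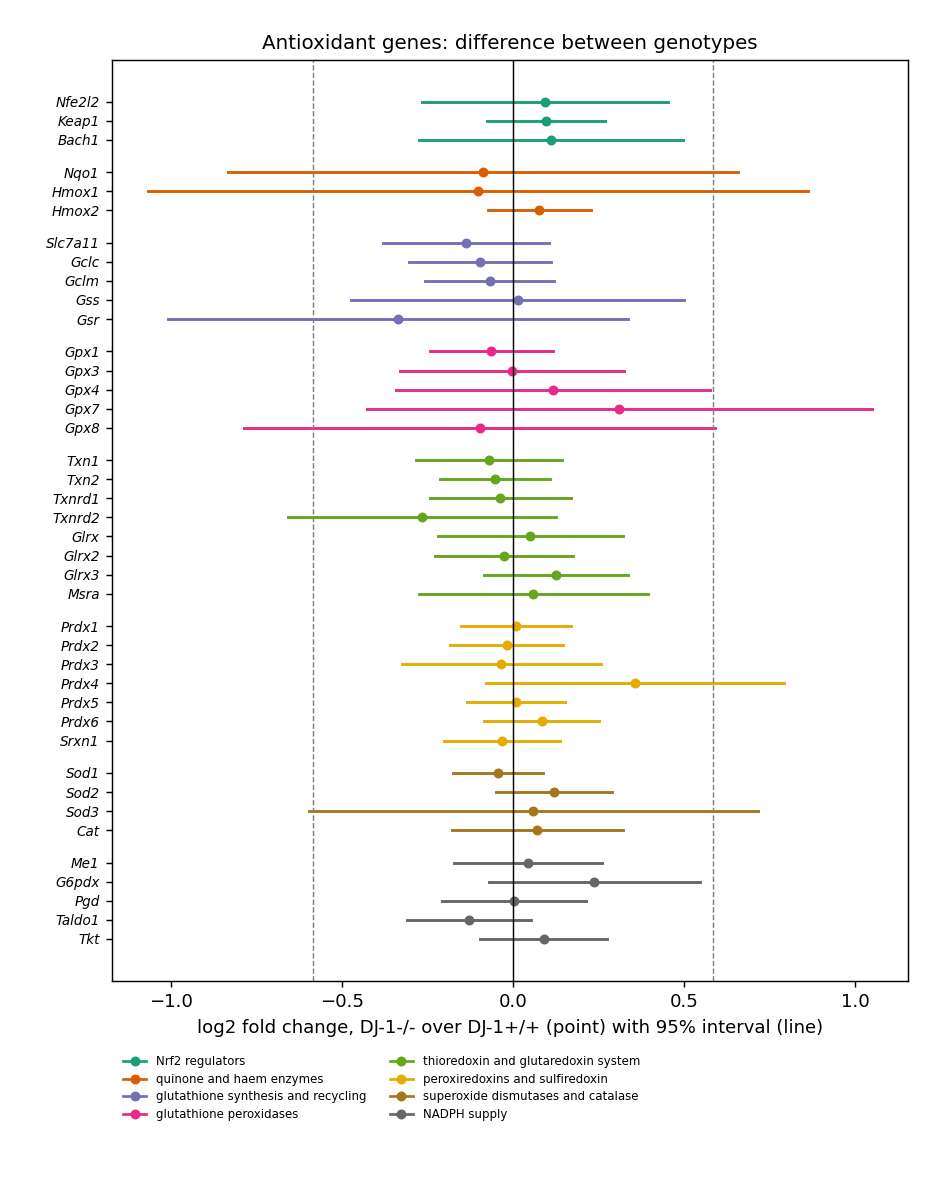
The 40 tested genes, grouped by role, with the edgeR log2 fold change of DJ-1-/- over DJ-1+/+ mice on the horizontal axis (points) and its 95% interval (lines); dashed lines mark 1.5-fold. Every interval spans 0, and those of Hmox1, Gsr and Gpx7 are the ones that reach past 2-fold.

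The 3 regulators of the response were all slightly higher in the fit for DJ-1-/- mice, and 0 of 3 passed the test. Nfe2l2, which encodes Nrf2 itself, stood at 55.8, 54.6, 60.5 and 47.4 cpm in the DJ-1+/+ mice and at 59.1, 68.3, 75.3, 41.3 and 46.8 cpm in the DJ-1-/- mice. The DJ-1-/- values spread around those of the controls, with replicates 2 and 3 above and replicates 4 and 5 below all 4 of them, and the difference was 0.09 ± 0.17 (log2 fold change ± SE, edgeR p = 0.592, exact permutation p = 0.667). Keap1, the sensor that keeps Nrf2 low, was measured at 151, 135, 134 and 126 cpm in DJ-1+/+ and 139, 132, 154, 160.2 and 146 cpm in DJ-1-/- mice. DJ-1-/- replicates 3 and 4 lay above all controls, the other 3 within their range, and the difference was 0.10 ± 0.08 (log2 fold change ± SE, edgeR p = 0.259, exact permutation p = 0.222), with a 95% interval of 0.949 to 1.21-fold. Bach1, the repressor at the same elements, had 54.6, 46.6, 34.9 and 37.2 cpm in DJ-1+/+ and 38.04, 54.6, 55.7, 49.6 and 36.1 cpm in DJ-1-/- mice. Its groups covered almost the same range, at 0.11 ± 0.18 (log2 fold change ± SE, edgeR p = 0.552, exact permutation p = 0.492).

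Among the quinone and haem enzymes, the classical readouts of Nrf2 activity were present at low counts in this tissue. Nqo1, which reduces quinones by 2 electrons at a time, had 21, 13, 10 and 6 counts in the DJ-1+/+ and 11, 17, 19, 9 and 13 counts in the DJ-1-/- libraries. The highest and the lowest value were both from DJ-1+/+ mice, and the level was 14.5 ± 7.68 cpm (SD, n = 4 DJ-1+/+ mice) against 13.6 ± 4.05 cpm (SD, n = 5 DJ-1-/- mice). Its difference was -0.09 ± 0.35 (log2 fold change ± SE, edgeR p = 0.806, exact permutation p = 0.825), and the 95% interval, 0.562 to 1.58-fold, is wide. Hmox1, the inducible haem oxygenase, had 7, 11, 14 and 7 counts in DJ-1+/+ and 13, 14, 11, 14 and 1 counts in DJ-1-/- libraries. Its single count in DJ-1-/- replicate 5 stands apart from the other DJ-1-/- libraries. The lowest 3 values of the 9 were those of the 3 male libraries, which held no more than 2 Xist counts. The difference of Hmox1 was -0.10 ± 0.45 (log2 fold change ± SE, edgeR p = 0.826, exact permutation p = 0.889), with an interval of 0.478 to 1.82-fold. With the log2 cpm of Xist as a covariate it was -0.54 (unadjusted p = 0.195, adjusted p 1.0 by edgeR), and among the 6 libraries with Xist counts -0.16. Hmox2, the constitutive haem oxygenase, was far more abundant and varied little between mice, at 138, 132, 142 and 142 cpm in DJ-1+/+ and 153, 145, 139, 154 and 139 cpm in DJ-1-/- mice. Replicates 1, 2 and 4 of the DJ-1-/- mice were above all controls, and the other 2 lay within their range. Its difference was 0.08 ± 0.07 (log2 fold change ± SE, edgeR p = 0.365, exact permutation p = 0.143), with an interval of 0.9499 to 1.17-fold. This interval is narrower than the edgeR p implies. Osgin1, an oxidative-stress-induced growth inhibitor, had 0, 3, 1 and 0 counts in DJ-1+/+ and 2, 0, 1, 0 and 1 counts in DJ-1-/- libraries, was at or under 3 counts in every library, and was not tested.

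**Figure D2:**
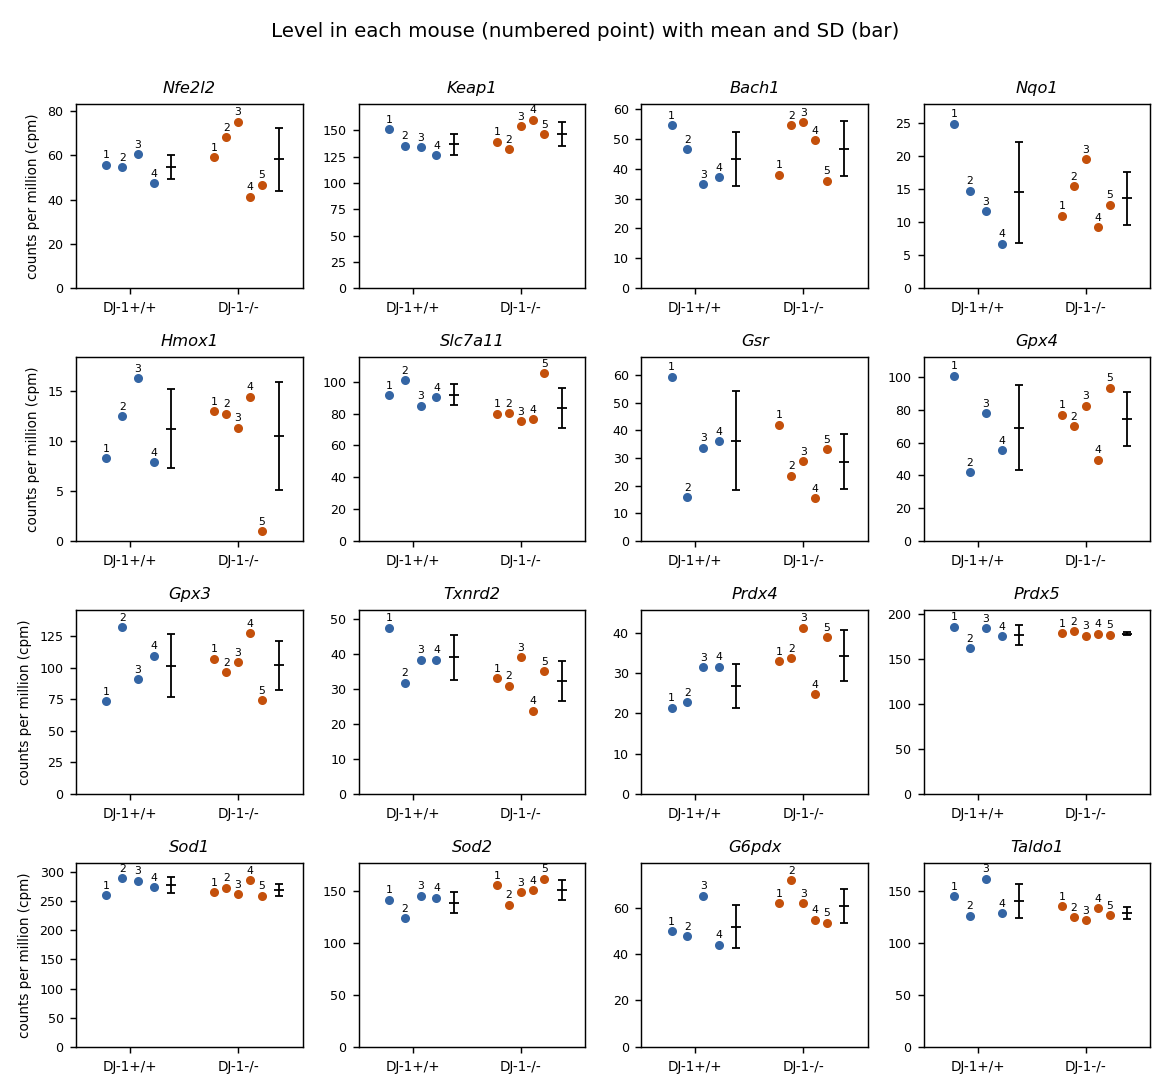
Level in cpm (vertical axes, from 0) of 16 of the genes in each DJ-1+/+ mouse (blue) and DJ-1-/- mouse (orange), numbered by replicate, with mean and SD as black bars. The genotypes overlap in every panel; Gsr, Gpx4 and Gpx3 spread widely between mice of one genotype, and Prdx5 and Sod1 hardly at all.

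Glutathione is made by the glutamate-cysteine ligase subunits Gclc and Gclm and by the synthetase Gss, from cystine that Slc7a11 imports, and it is recycled by the reductase Gsr. The fitted value was lower in DJ-1-/- mice for 4 of these 5 genes, and 0 of 5 passed the test. Summed, they reached 374 to 451 cpm in DJ-1+/+ mice and 344 to 423 cpm in DJ-1-/- mice. Slc7a11 stood at 91.5, 101, 84.9 and 90.3 cpm in DJ-1+/+ mice and at 80.1, 80.1, 75.3, 76.5 and 105 cpm in DJ-1-/- mice. DJ-1-/- replicates 1 to 4 lay below all 4 controls, and replicate 5 above them. The difference was -0.14 ± 0.11 (log2 fold change ± SE, edgeR p = 0.243, exact permutation p = 0.238) with all mice and -0.24 without replicate 5 (unadjusted p = 0.0338, adjusted p 1.0 by edgeR). Over the fits with single mice left out it ran from -0.24 to -0.10. Gclc, the catalytic ligase subunit, was at 114, 107, 124 and 131 cpm in DJ-1+/+ and 127, 113, 101, 97.1 and 118 cpm in DJ-1-/- mice. The 2 lowest values belonged to DJ-1-/- replicates 3 and 4, the rest lay among the controls, and the difference was -0.10 ± 0.10 (log2 fold change ± SE, edgeR p = 0.336, exact permutation p = 0.349). Gclm, the modifier subunit whose promoter is shown above, was at 154, 122, 131 and 134 cpm in DJ-1+/+ and 141, 129, 118, 137 and 119.9 cpm in DJ-1-/- mice. Its highest value was that of DJ-1+/+ replicate 1, and the difference was -0.07 ± 0.09 (log2 fold change ± SE, edgeR p = 0.445, exact permutation p = 0.492). Gss had a difference of 0.01 ± 0.23 (SE).

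Gsr, which returns oxidised glutathione to its reduced form, had the largest fitted decrease of the list and one of the largest spreads. It was measured at 59.4, 15.9, 33.7 and 36.1 cpm in DJ-1+/+ and at 42.04, 23.7, 28.9, 15.5 and 33.1 cpm in DJ-1-/- mice. DJ-1+/+ replicate 1 was the highest of all mice, replicate 2 and DJ-1-/- replicate 4 were the lowest, and the difference of -0.34 ± 0.32 (log2 fold change ± SE, edgeR p = 0.305, exact permutation p = 0.444) was within that spread. Without DJ-1+/+ replicate 2 it was -0.59 (unadjusted p = 0.0505, adjusted p 0.997 by edgeR), and without replicate 1 it was 0.00.

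The glutathione peroxidases use glutathione to reduce hydrogen peroxide and lipid peroxides. Of the 5 measured, the fitted value was higher in DJ-1-/- mice for 2 and lower for 3, and their sum was 322 to 371 cpm in DJ-1+/+ mice and 319.6 to 372 cpm in DJ-1-/- mice. Gpx4, which reduces lipid peroxides in membranes, stood at 101, 42.1, 77.9 and 55.3 cpm in DJ-1+/+ and 77.1, 70.1, 82.5, 49.6 and 93.5 cpm in DJ-1-/- mice. Its lowest values were those of DJ-1+/+ replicate 2 and DJ-1-/- replicate 4, as for Gsr, and its highest those of DJ-1+/+ replicate 1 and DJ-1-/- replicate 5. Gpx3, the secreted plasma enzyme, had 73.6, 132, 90.7 and 109 cpm in DJ-1+/+ and 107, 96.5, 104, 127 and 74.1 cpm in DJ-1-/- mice. Here the order was reversed, with DJ-1+/+ replicate 2 and DJ-1-/- replicate 4 highest and DJ-1+/+ replicate 1 and DJ-1-/- replicate 5 lowest. In both genes the mice of one genotype therefore differed more than the genotypes did, at 0.12 ± 0.22 (log2 fold change ± SE, edgeR p = 0.596, exact permutation p = 0.7302) for Gpx4 and -0.00 ± 0.15 (SE) for Gpx3. Counts of Gpx4 are uncertain, since its annotated pseudogene Gpx4-ps2 was listed with 502 counts over the 9 libraries beside 616 of Gpx4; summed, the pair stood at 124.5 ± 33.6 cpm (SD, n = 4 DJ-1+/+ mice) against 135.5 ± 19.9 cpm (SD, n = 5 DJ-1-/- mice). Gpx1, the abundant cytosolic peroxidase, was at 173, 166, 137 and 139.9 cpm in DJ-1+/+ and 148, 152, 152, 155 and 131 cpm in DJ-1-/- mice. DJ-1-/- replicate 5 was the lowest of all, the other 4 lay within the range of the controls, and the difference was -0.06 ± 0.08 (log2 fold change ± SE, edgeR p = 0.4604, exact permutation p = 0.508). Gpx7, a peroxidase of the endoplasmic reticulum, had 7, 10, 6 and 6 counts in DJ-1+/+ and 8, 18, 9, 7 and 11 counts in DJ-1-/- libraries. These are near the smallest level that can be shown, and its difference of 0.31 ± 0.35 (log2 fold change ± SE, edgeR p = 0.386, exact permutation p = 0.413) has an interval of 0.744 to 2.07-fold. Gpx8, of the same compartment, had 8 to 25 counts in DJ-1+/+ and 11 to 24 counts in DJ-1-/- libraries. Its highest value was that of DJ-1+/+ replicate 4, the library with the most choroid plexus RNA and from a male mouse. The difference of Gpx8 was -0.10 ± 0.32 (SE) with all libraries and 0.23 without that one. Whether tissue content or sex bears on this was not tested.

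The thioredoxins are small disulfide reductases that the thioredoxin reductases recharge with NADPH, and the glutaredoxins do the same work with glutathione. Of the 8 genes of this group the fitted value was higher in DJ-1-/- mice for 3 and lower for 5, and together they reached 707 to 854 cpm in DJ-1+/+ mice and 740.4 to 794 cpm in DJ-1-/- mice. Txnrd2, the mitochondrial reductase, had the smallest p of the group. It was measured at 47.5, 31.8, 38.4 and 38.4 cpm in DJ-1+/+ and 33.03, 30.96, 39.2, 23.8 and 35.1 cpm in DJ-1-/- mice. DJ-1-/- replicates 2 and 4 were below all controls, the other 3 within their range, and the difference was -0.27 ± 0.19 (log2 fold change ± SE, edgeR p = 0.169, exact permutation p = 0.159), with an interval of 0.633 to 1.09-fold. Txnrd1, the cytosolic reductase and a classical Nrf2 target, stood at 98.6, 90.9, 89.6 and 105 cpm in DJ-1+/+ and 86.1, 100.2, 87.7, 107 and 86.7 cpm in DJ-1-/- mice. Its values in both groups filled the range from 86.1 to 107 cpm, at -0.04 ± 0.10 (log2 fold change ± SE, edgeR p = 0.722, exact permutation p = 0.635). Their substrates, the cytosolic Txn1 at -0.07 ± 0.10 and the mitochondrial Txn2 at -0.05 ± 0.08 on the log2 scale (SE), did not pass the test either. Txn1 reached 195 cpm in DJ-1+/+ replicate 3 and lay between 132 and 162 cpm in the other 8 mice. The glutaredoxins Glrx (0.05 ± 0.13), Glrx2 (-0.03 ± 0.09) and Glrx3 (0.12 ± 0.10) and the methionine sulfoxide reductase Msra (0.06 ± 0.16) had differences within 1 or 2 standard errors (log2 fold change ± SE). Glrx3, which carries iron-sulfur clusters, was at 103, 119, 151 and 114 cpm in DJ-1+/+ and 145, 127, 125, 136 and 132 cpm in DJ-1-/- mice. DJ-1+/+ replicate 3 was the highest of all 9 mice and the other 3 controls were the lowest, so that without it the difference was 0.24 ± 0.09 (SE, unadjusted p = 0.0165, adjusted p 0.999 by edgeR). Over the fits with single mice left out the difference of Glrx3 ran from 0.06 to 0.24. Without DJ-1+/+ replicates 1 and 4 it was -0.02.

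Peroxiredoxins are the main consumers of hydrogen peroxide in most cells, and sulfiredoxin, Srxn1, repairs them when they are overoxidised. Prdx1, Prdx2, Prdx5, Prdx6 and Srxn1 were among the most abundant of the list, with means of 139 to 173 counts per library, while Prdx3 averaged 55.6 and Prdx4 29.7. The 7 genes had sums of 852 to 968 cpm in DJ-1+/+ mice and 887 to 983 cpm in DJ-1-/- mice, and the fitted value was higher for 4 and lower for 3 of them in DJ-1-/- mice, with 0 of 7 passing the test. Prdx4, the peroxiredoxin of the endoplasmic reticulum, had the smallest p of all 40 genes. It stood at 21.4, 22.7, 31.4 and 31.6 cpm in DJ-1+/+ mice and at 33.03, 33.7, 41.3, 24.8 and 38.98 cpm in DJ-1-/- mice. DJ-1-/- replicates 1, 2, 3 and 5 were above all controls and replicate 4 was among them, and the difference was 0.36 ± 0.20 (log2 fold change ± SE, edgeR p = 0.101, exact permutation p = 0.0794). The level was 26.8 ± 5.49 cpm (SD, n = 4 DJ-1+/+ mice) against 34.4 ± 6.38 cpm (SD, n = 5 DJ-1-/- mice). The 95% interval was 0.947 to 1.73-fold. Without DJ-1-/- replicate 4 the difference of Prdx4 was 0.44 (unadjusted p = 0.0411, adjusted p 1.0 by edgeR). Over the fits with single mice left out it ran from 0.27 to 0.45. Prdx4 lies on the X chromosome (chrX:155323918-155340754), and among the 6 libraries with Xist counts, those of the female mice, its difference was 0.29 by edgeR.

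The differences of the remaining peroxiredoxins were small. Prdx1 and Prdx2 of the cytosol, Prdx3 of the mitochondria, Prdx5 of several compartments and the glutathione-dependent Prdx6 had log2 fold changes of 0.01 ± 0.08, -0.02 ± 0.08, -0.03 ± 0.14, 0.01 ± 0.07 and 0.08 ± 0.08 (SE). Prdx5 had the smallest spread relative to its mean count of the 40 genes, at 186, 163, 185 and 176 cpm in DJ-1+/+ and 179, 181, 176, 179 and 177 cpm in DJ-1-/- mice. Its 5 DJ-1-/- values were nearly equal and inside the range of the controls. Prdx1, whose promoter is shown above, stood at 185, 182, 194 and 167 cpm in DJ-1+/+ and 192, 178, 168, 203 and 174 cpm in DJ-1-/- mice, with an interval of 0.899 to 1.12-fold. The groups overlapped over nearly their whole range. Srxn1, which is induced strongly by Nrf2, was at 149.6, 141, 157 and 146 cpm in DJ-1+/+ and 146, 144, 149.6, 162 and 125 cpm in DJ-1-/- mice. Its extremes, the highest in DJ-1-/- replicate 4 and the lowest in replicate 5, were both DJ-1-/- mice, and the difference was -0.03 ± 0.08 (log2 fold change ± SE, edgeR p = 0.6997, exact permutation p = 0.762). Prdx2, Prdx5, Hmox2, Gss, Sod1 and G6pdx overlap other genes on the opposite strand, and whether the counting used the strand is not given in the sources used here.

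Superoxide dismutases turn superoxide into hydrogen peroxide, which catalase, encoded by Cat, splits. Summed, the 4 genes reached 507 to 575 cpm in DJ-1+/+ mice and 516 to 553 cpm in DJ-1-/- mice. Sod2, the manganese enzyme of the mitochondria, had the smallest p of the 4. It was measured at 141, 124, 145 and 143 cpm in DJ-1+/+ and 155, 137, 149, 151 and 162 cpm in DJ-1-/- mice. Replicates 1, 3, 4 and 5 of the DJ-1-/- mice exceeded all controls and replicate 2 lay among them, and the difference was 0.12 ± 0.08 (log2 fold change ± SE, edgeR p = 0.158, exact permutation p = 0.111), with an interval of 0.965 to 1.22-fold. Sod1, the copper-zinc enzyme of the cytosol, was at 260.1, 289.8, 285 and 274 cpm in DJ-1+/+ and 265, 273, 262, 286 and 259 cpm in DJ-1-/- mice. The values of both groups were mixed, and the difference of -0.04 ± 0.06 (SE) has the narrowest interval of the list, 0.886 to 1.06-fold. Sod3, the extracellular enzyme, had 12 to 20 counts in DJ-1+/+ and 12 to 29 counts in DJ-1-/- libraries (0.06 ± 0.31, log2 fold change ± SE). For Cat the level was 92.4 ± 19.4 cpm (SD, n = 4 DJ-1+/+ mice) against 96.9 ± 5.59 cpm (SD, n = 5 DJ-1-/- mice), at 0.07 ± 0.12 on the log2 scale (SE), with the highest value in DJ-1+/+ replicate 3.

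NADPH, which feeds both the glutathione and the thioredoxin reductases, comes from the pentose phosphate pathway, with G6pdx and Pgd in its oxidative and Taldo1 and Tkt in its non-oxidative branch, and from malic enzyme, Me1. The 5 genes summed to 465 to 522 cpm in DJ-1+/+ mice and 465 to 508 cpm in DJ-1-/- mice. G6pdx, which catalyses the entry step, had the smallest p of the 5. Its level was 49.9, 47.7, 65.2 and 44.01 cpm in DJ-1+/+ and 62.1, 71.9, 61.9, 54.8 and 53.6 cpm in DJ-1-/- mice. All 5 DJ-1-/- mice were above 3 of the controls, and DJ-1+/+ replicate 3 exceeded 4 of them. The difference was 0.24 ± 0.15 (log2 fold change ± SE, edgeR p = 0.122, exact permutation p = 0.127), and without DJ-1+/+ replicate 3 it was 0.37 (unadjusted p = 0.0248, adjusted p 0.999 by edgeR). Over the fits with single mice left out it ran from 0.17 to 0.37. G6pdx is X-linked too (chrX:74409483-74429194), and among the 6 libraries with Xist counts, those of the female mice, its difference was 0.15 by edgeR. Taldo1, the transaldolase, was lower in the fit, at 145, 126, 162 and 129 cpm in DJ-1+/+ and 135, 125, 122, 133 and 127 cpm in DJ-1-/- mice. DJ-1+/+ replicates 1 and 3 were above all DJ-1-/- mice and the other 2 controls among them, and the difference was -0.13 ± 0.09 (log2 fold change ± SE, edgeR p = 0.149, exact permutation p = 0.206). Pgd, Tkt and Me1 had log2 fold changes of 0.00 ± 0.10, 0.09 ± 0.09 and 0.04 ± 0.10 (SE).

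**Figure D3:**
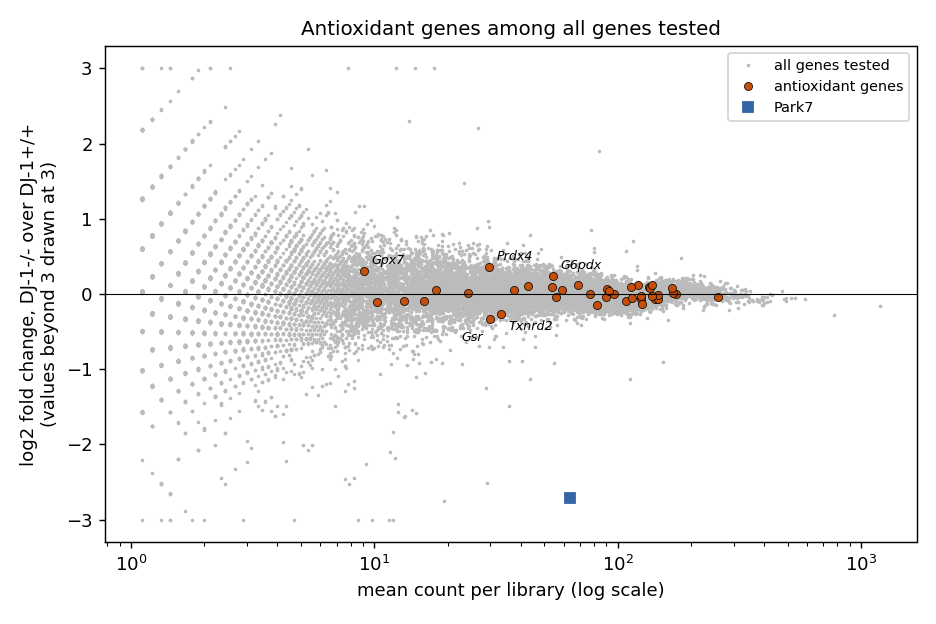
Mean count per library (horizontal axis, log scale) against the edgeR log2 fold change of DJ-1-/- over DJ-1+/+ mice for all 18127 genes tested (grey), the 40 antioxidant genes (orange) and Park7 (blue square). The antioxidant genes lie between -0.34 and 0.36, within the cloud of genes of like abundance, and Park7 stands at -2.71.

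The 9 genes whose promoter held the antioxidant response element core had a median log2 fold change of 0.00, from -0.07 for Gclm to 0.24 for G6pdx, and the 25 tested genes with a matched promoter without it had a median of 0.01. The genes with the core were spread over all roles but the quinone and haem enzymes and the glutathione peroxidases. A gene without these letters may hold an element outside the window, so the 2 groups describe the windows and not the genes that Nrf2 controls.

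Mice of one genotype differed far more in some of these genes than in others. As a measure, the variance of the depth-scaled counts over mice of one genotype was divided by the mean, which is 1 on average where only counting error is at work. The median ratio was 0.990 over the 40 genes and 1.13 over all genes tested, and 20 of the 40 were under 1. It was over 2 for 9 genes: Gpx4 (5.69), Gsr (5.26), Gpx3 (4.38), Gpx8, Sod3, Nfe2l2, Nqo1, Hmox1 and Txn1. At the other end stood Prdx5 (0.264), Hmox2 (0.266), Txn2 (0.326), Msra (0.423) and Sod1 (0.487). Whether these low ratios differ from counting error alone was not tested. For Nfe2l2 the spread was in the DJ-1-/- mice, with a ratio of 3.53 against 0.467 in the controls, each from 5 or 4 mice. Over all genes tested the median ratio was 0.881 for the 2442 genes that averaged 100 to 150 counts, the range of Hmox2 and Txn2, 1.26 for those of 150 to 300 counts, the range of Prdx5 and Sod1, and 1.21 for those of 30 to 60 counts, the range of Msra.

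The counts as deposited span a narrow range. The highest count of any gene in any library was 1359, the 10 most counted genes took 0.585% to 0.693% of a library, and 63 genes averaged 300 counts or more. Whether the counting of identifiers limited high counts, and with them the fold changes and intervals of abundant genes, was not tested. The intervals given above are those of the deposited counts.

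**Figure D4:**
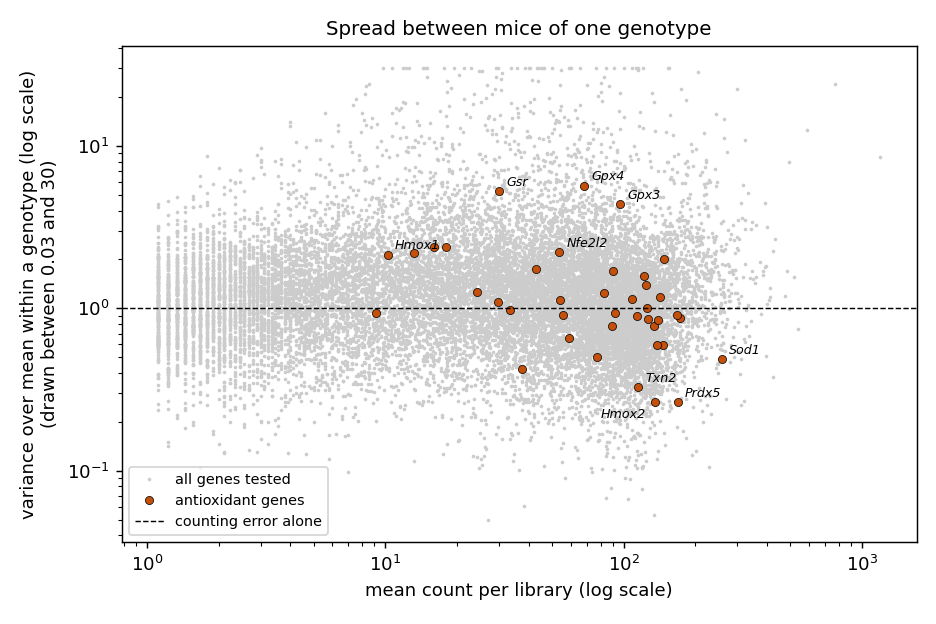
Mean count per library (horizontal axis, log scale) against the variance over the mean of depth-scaled counts within a genotype (vertical axis, log scale) for all genes tested (grey) and the 40 antioxidant genes (orange); the dashed line marks counting error alone. Gpx4, Gsr and Gpx3 lie above 4, and Prdx5, Hmox2 and Txn2 below 0.4.

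Further genes of the pathway that are not in the list of 41 gave the same count by edgeR. Of 47 such genes 44 were tested (Gpx2, Gpx5 and Gpx6 had too few counts). An unadjusted p under 0.05 was found for 0 of 44 by edgeR and for 1 by the exact permutation test. Of all 18127 genes tested, 511 had one by edgeR and 666 by the exact permutation test. The fitted value was higher in DJ-1-/- mice for 21 and lower for 23, with a median of -0.01. Among the 13 partners of Nrf2 and parts of its degradation, such as the small Maf proteins, Cul3, Rbx1 and Sqstm1, it was higher for 4 and lower for 9. Of 18 other target enzymes, such as Fth1, Ftl1, Cbr1 and Ephx1, it was higher for 11 and lower for 7, and of the 13 tested thiol redox genes for 6 and 7. The 3 smallest p-values were those of Msrb1, Sesn2 and Oplah. Msrb1, a selenium-dependent methionine sulfoxide reductase, stood at 48.7, 52.3, 67.5 and 57.6 cpm in DJ-1+/+ and 77.1, 75.6, 71.2, 53.7 and 63.3 cpm in DJ-1-/- mice. DJ-1-/- replicates 1 to 3 were above all controls, and the difference was 0.27 ± 0.14 (log2 fold change ± SE, edgeR p = 0.0723, exact permutation p = 0.111). Sesn2, a stress-induced sestrin, was at 26.1, 18.2, 15.1 and 29.3 cpm in DJ-1+/+ and 12.01, 19.1, 13.4, 20.7 and 13.6 cpm in DJ-1-/- mice. All 5 DJ-1-/- mice lay below DJ-1+/+ replicates 1 and 4, the 2 with the most choroid plexus RNA, and the difference was -0.49 ± 0.27 (log2 fold change ± SE, edgeR p = 0.0874, exact permutation p = 0.127). Without these 2 libraries it was -0.07 and among the 6 libraries with Xist counts -0.03, and with single mice left out it ran from -0.64 to -0.32. These 2 libraries were also those of the male DJ-1+/+ mice. Whether tissue content or sex bears on Sesn2 was not tested. Oplah, the 5-oxoprolinase of the glutathione cycle, was at 49.9, 46.6, 53.5 and 48.5 cpm in DJ-1+/+ and 44.04, 36.4, 45.4, 35.1 and 46.8 cpm in DJ-1-/- mice. DJ-1-/- replicate 5 just exceeded the lowest control, the other 4 were below all controls, and the difference was -0.26 ± 0.15 (log2 fold change ± SE, edgeR p = 0.102, exact permutation p = 0.0317). The exact permutation p of Oplah was 1.0 after adjustment over all genes.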

How the data were processed

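RNA was extracted from midbrain tissue of 4 DJ-1+/+ and 5 DJ-1-/- mice and made into 3′ mRNA libraries (QuantSeq FWD, stranded). The authors deposited, for each mouse, whole-number UMI counts per Ensembl gene, not normalized, with genes of 0 counts left out. The submitters' processing notes name fastp 0.20.0, STAR 2.7.3a, Subread featureCounts 2.0.0, UMI-tools 1.0.0 and the build GRCm38. The annotation and the use of strand in counting are not given in the sources used here. No column of another sample was present.

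Counts were joined by gene identifier, with 0 where a gene was not listed, and symbols and positions were taken from GENCODE M21. All genes whose 9 libraries together held 10 counts or more were tested with edgeR 4.0.16 (glmQLFit, glmQLFTest; R 4.3.3, limma 3.58.1) after TMM scaling with genotype as the only term, as in the study's own model, and p-values were adjusted by Benjamini-Hochberg over all 18127 genes. The SE is the log2 fold change over the root of the F statistic, and intervals are at 95%. For genes that vary less than counting error, edgeR keeps the p from falling below that of counting error, and the SE does not follow. The intervals of such genes, Hmox2 and Txn2 among them, are too narrow. Single genes were also compared as cpm by exact two-sided permutation over the 126 splits of the mice (scipy 1.17.1). Where no culture, litter or batch is stated, p-values measure the spread between these mice.

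The 41 genes and the lists were chosen with earlier results of these data known. Described in full were Park7, the regulators, Nqo1, Hmox1, any gene with an unadjusted p under 0.05 or without overlap between genotypes, the gene with the smallest p in each role, and of the wider list those with p under 0.05 or, with fewer than 3, the 3 smallest. Other genes were named after their values were seen. Alternatives were DESeq2 1.42.0, RLE size factors, library totals, edgeR's likelihood ratio test, other count filters, thinned counts, a term for Xist, a block for the replicate number, and libraries left out.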

Additional observations from a re-analysis of the deposited data

Results flagged for a closer look

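In 4 cases a single mouse lay far from the others of its genotype by Dixon's 95% criterion, out of 90 groups examined (each gene in each genotype), where chance gives about 1 in 20, or 4.5. All 4 were DJ-1-/- replicate 5. Hmox1 was at 0.974 cpm there, a single count, and at 11.3 to 14.5 cpm in the other 4 DJ-1-/- mice. Slc7a11 was at 105 cpm and in the other 4 at 75.3 to 80.1 cpm. Gpx1 was at 131 cpm against 148 to 155 cpm, and Msra at 45.8 cpm against 38.2 to 40.04 cpm. DJ-1-/- replicate 5 was also the only DJ-1-/- library with at most 2 counts of Xist, and by its Y-linked transcripts the only male of its genotype.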

How the results depend on the processing

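No antioxidant gene had an adjusted p under 0.05 under any of the 21 alternatives. Park7 fell under all of them, at -2.83 to -2.60 with single mice or DJ-1+/+ replicates 1 and 4 left out. Among the 6 libraries with Xist counts it was at -2.57. On cpm it was at -2.73, where the adjusted p of the exact permutation test was 1.0 since its smallest p is 0.0159. The number of antioxidant genes with an unadjusted p under 0.05 was 0 under the other alternatives, 1 with the replicate block (Slc7a11, log2 fold change -0.24) and 0 to 2 with mice left out. Of the wider list it was 1 by the permutation test (Oplah), 1 among the 6 libraries with Xist counts (Blvrb), and 0 to 3 with mice left out, the 3 (Btrc, Blvrb and Aox1) without DJ-1+/+ replicates 1 and 4. Same-numbered mice did not deviate together (correlations -0.14 to 0.14) and share only a number. Over all genes the calls at an unadjusted p under 0.05 went from 511 to 235 by DESeq2 and to 802 without a filter on low counts, and those at an adjusted p under 0.05 from 1 to 36 without a filter, 8 with the replicate block, 3 among the 6 libraries with Xist counts, 2 by the likelihood ratio test and 0 by the permutation test. The sign of the fitted value (log2 fold change) stayed the same in all 21 alternatives for 16 of the 40 genes and turned in at least 1 for 24, none of which passed the test there; the cause was not tested. By DESeq2 the fit gave -0.0023 for Prdx1, -0.0012 for Prdx5 and -0.0086 for Pgd. With RLE size factors the fit gave -0.0024 for Prdx1, -0.0012 for Prdx5 and -0.0087 for Pgd. By edgeR's likelihood ratio test the fit gave 0.00056 for Gpx3. On cpm the fit gave 0.0053 for Gpx3. With the filterByExpr filter the fit gave -0.00081 for Prdx1 and -0.0071 for Pgd. With counts thinned to one depth the fit gave -0.087 for Gss, -0.0022 for Prdx1, -0.0088 for Prdx5, 0.020 for Srxn1, -0.0093 for Sod3 and -0.012 for Me1. Among the 6 libraries with Xist counts, an alternative chosen after seeing the data, the fit gave 0.065 for Nqo1, 0.052 for Gclm, 0.15 for Gsr, 0.37 for Gpx8, 0.078 for Txnrd1, 0.011 for Glrx2, -0.021 for Glrx3, -0.051 for Msra, -0.024 for Prdx1, 0.053 for Prdx2, 0.011 for Srxn1, -0.12 for Cat and -0.066 for Pgd. With Xist as a covariate the fit gave -0.014 for Prdx1, 0.023 for Prdx2, -0.036 for Sod3 and -0.047 for Pgd. Without a filter on low counts the fit gave 0.0070 for Gpx3. With the replicate block the fit gave 0.21 for Hmox1, -0.040 for Gss, 0.092 for Gpx3, 0.046 for Gpx8, 0.014 for Glrx2, 0.024 for Prdx3 and 0.014 for Srxn1. With each mouse, or DJ-1+/+ replicates 1 and 4 together, left out the fitted values ran from -0.012 to 0.18 for Nfe2l2, -0.32 to 0.30 for Nqo1, -0.45 to 0.19 for Hmox1, -0.12 to 0.032 for Gclm, -0.10 to 0.14 for Gss, -0.59 to 0.21 for Gsr, -0.13 to 0.14 for Gpx3, -0.066 to 0.36 for Gpx4, -0.31 to 0.25 for Gpx8, -0.16 to 0.040 for Txn1, -0.10 to 0.057 for Txnrd1, -0.016 to 0.10 for Glrx, -0.093 to 0.025 for Glrx2, -0.020 to 0.24 for Glrx3, -0.027 to 0.11 for Msra, -0.041 to 0.039 for Prdx1, -0.083 to 0.064 for Prdx2, -0.11 to 0.023 for Prdx3, -0.037 to 0.044 for Prdx5, -0.084 to 0.013 for Srxn1, -0.14 to 0.20 for Sod3, -0.10 to 0.23 for Cat, -0.018 to 0.091 for Me1 and -0.088 to 0.075 for Pgd. At the depth of these libraries, genes under about 20 counts, such as Nqo1, Hmox1, Gpx7, Gpx8 and Sod3, have 95% intervals that reach past 1.5-fold.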
